A study of Homo sapiens with 12 samples.

Results

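Cell-cell junction genes were followed across 12 arrays of H1299-Dendra2 cells. H1299 is a human line of non-small cell lung cancer, here stably transfected with Dendra2, a fluorophore whose colour is switched by light. The genes were all measured symbols of the claudins, the connexins, the desmogleins, the desmocollins, the plakophilins, the catenins, the numbered cadherins and the zonula occludens proteins, together with occludin (OCLN), desmoplakin (DSP), plakoglobin (JUP), cingulin (CGN) and JAM-A (F11R). This rule took 43 of the 14884 gene symbols measured, with 1 probeset each, and it used no measured value other than the choice of the probeset with the highest mean for each symbol. RefSeq holds 93 human symbols that fit the rule, and the other 50 carried no symbol in the annotation used here and were not analysed here by name. All 24 claudins, all 7 desmosomal cadherins and all 6 desmosomal plaque genes were measured, as were 4 of 6 other tight junction genes (OCLN, TJP1, TJP3 and CGN). Of 23 cadherins only CDH23 and CDH26 were measured by name. None of 6 catenins and none of 21 connexins was, so E-cadherin, N-cadherin, VE-cadherin, the classical adherens junction and the gap junction are not described here.

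The 4 groups held 3 arrays each. Leader cells were taken from the tip of invading chains and follower cells from behind them. Invasive photoconverted cells had been switched to red light emission, and invasive non-photoconverted cells had not, so that this pair served as the control for the switch. The cells in all 4 groups were H1299-Dendra2 cells in spheroids embedded in matrix, released with a protease and sorted by colour, as the methods describe. Each array was made from a small pool of sorted cells, amplified by a protocol for RNA of 1 to 20 cells, and in such pools fewer cells that use a gene and less RNA per cell cannot be told apart. The labels do not say that the replicates were separate cultures, so the p-values cover the spread between these samples alone, which may be technical, and 3 arrays per group limit the precision.

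Tight junctions seal the space between neighbouring epithelial cells. Claudins and occludin form the strands in the membrane, and zonula occludens proteins and cingulin tie these strands to actin. Desmosomes rivet cells together through desmogleins and desmocollins, which plakoglobin, plakophilins and desmoplakin link to keratin filaments. In carcinomas, repressors of the Snail and Zeb families bind E-box elements in the promoters of several such genes and lower their transcription.

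The promoters of 2 members are shown because they carry the contrast in that element. Of the 43 genes, 35 had an entry among the RefSeq promoters of GRCh38.p14. The 6-letter E-box CAGGTG, or CACCTG on the other strand, was searched in the 250 bases upstream of each start, and because the letters are reverse complements, each place was counted once. Capitals mark the E-box. The desmoglein gene DSG2 (chr18:31497927-31498176, plus strand) has 2 of them, starting 232 and 116 bases before the start site. The claudin gene CLDN3 (chr7:73770271-73770520, minus strand), the member with the highest signal, has none of these letters in its window.
DSG2: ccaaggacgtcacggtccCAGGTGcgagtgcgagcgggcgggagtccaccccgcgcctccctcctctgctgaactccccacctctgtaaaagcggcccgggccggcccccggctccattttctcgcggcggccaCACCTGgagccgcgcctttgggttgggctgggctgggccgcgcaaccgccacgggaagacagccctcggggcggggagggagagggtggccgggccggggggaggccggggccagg
CLDN3: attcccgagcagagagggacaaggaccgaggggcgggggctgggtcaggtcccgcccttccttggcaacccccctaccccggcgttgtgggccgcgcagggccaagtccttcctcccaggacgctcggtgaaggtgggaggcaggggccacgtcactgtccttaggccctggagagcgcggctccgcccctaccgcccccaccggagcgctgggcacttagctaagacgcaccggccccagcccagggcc
The element was found in 14 of 54 windows of the junction genes (25.9%) and in 6143 of 35116 windows of all promoters (17.5%). By gene, this was 13 of 35 (37.1%) against 5635 of 27305 (20.6%). CLDN18, OCLN, DSP, CDH23, CLDN25, TJP1, CLDN7, JUP, DSC2, DSG1, TJP3 and CLDN14 also held it. A match describes the letters of the window only, and its relation to the signal of a gene was not tested.

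The signal of the junction genes was low. The values are log2 intensities, and the median symbol had a mean of 2.89 over the 12 arrays, with quartiles of 2.64 and 3.22. The median of the 43 member means was 2.82, with quartiles of 2.64 and 3.06. As a mark of signal from genes that such cells are not known to use, 85 hair keratin-associated protein genes (KRTAP genes, a mark chosen after the data were seen) had a median of 2.83, a 75th percentile of 3.27 and a 95th percentile of 4.18. Only CLDN3 lay above that 95th percentile and 8 members lay above the 75th, while 24 members lay below the KRTAP median. The means of all symbols had nearly the same 75th and 95th percentiles, 3.22 and 4.16. The mark therefore does not set the junction genes apart from most other symbols. On a single array, 0 to 3 members lay above the 95th percentile of the KRTAP values of that array. This compares signals and does not order the genes by their RNA level, since probes differ in brightness. Among all 516 array values of the members, 30 exceeded 4, in 9 members, and 4 exceeded 5, in PKP4 and CLDN22.

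Vimentin (VIM), the mesenchymal filament protein, was the only one of 4 measured markers of such a line above the KRTAP 95th percentile. It averaged 5.25 on leader arrays, 5.92 on follower arrays, 6.26 on photoconverted arrays and 6.68 on non-photoconverted arrays, with single values of 4.15 to 7.35. The other measured markers of the line did not share this order. In the same order of groups, KRT18 averaged 4.08, 4.03, 3.73 and 3.60, and KRT8 averaged 3.09, 3.57, 3.05 and 3.09. NKX2-1 averaged 2.49, 2.70, 2.52 and 2.53. No test of these marker means is given here. The epithelial adhesion molecule EPCAM averaged 2.33. None of the 4 endothelial, 2 fibroblast, 2 leukocyte and 4 airway markers measured lay above that mark. Most symbols do not exceed it either, since the 95th percentile of all symbol means was 4.16. The median of all symbols was 2.81 to 2.91 per array, and the number of symbols above 6 ran between 76 on follower 3 and 332 on non-photoconverted 2. The part of such differences between arrays in the results below was not tested.

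**Figure D1:**
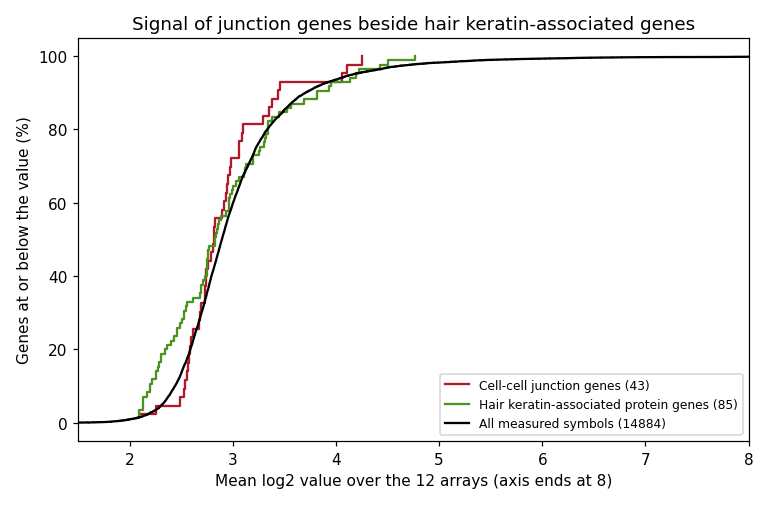
Cumulative share of genes (y axis, percent) by mean deposited log2 value over the 12 arrays (x axis, ends at 8) for the 43 junction genes, the 85 hair keratin-associated genes and all 14884 symbols. The junction genes end at the mean of CLDN3, 4.25, and their median of 2.82 lies at that of the keratin-associated genes, 2.83.

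The spread between arrays was near that of other genes. The whole range over the 12 arrays was under 1 log2 unit for 22 members (51.2%), against 43.3% of all symbols, with a median range of 0.977, against 1.08 over all symbols. It exceeded 2 in 4 members, CLDN17, CLDN24, PKP4 and CLDN22, and in 14.1% of all symbols. The median standard deviation within groups was 0.291 for the members and 0.322 for all symbols.

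**Figure D2:**
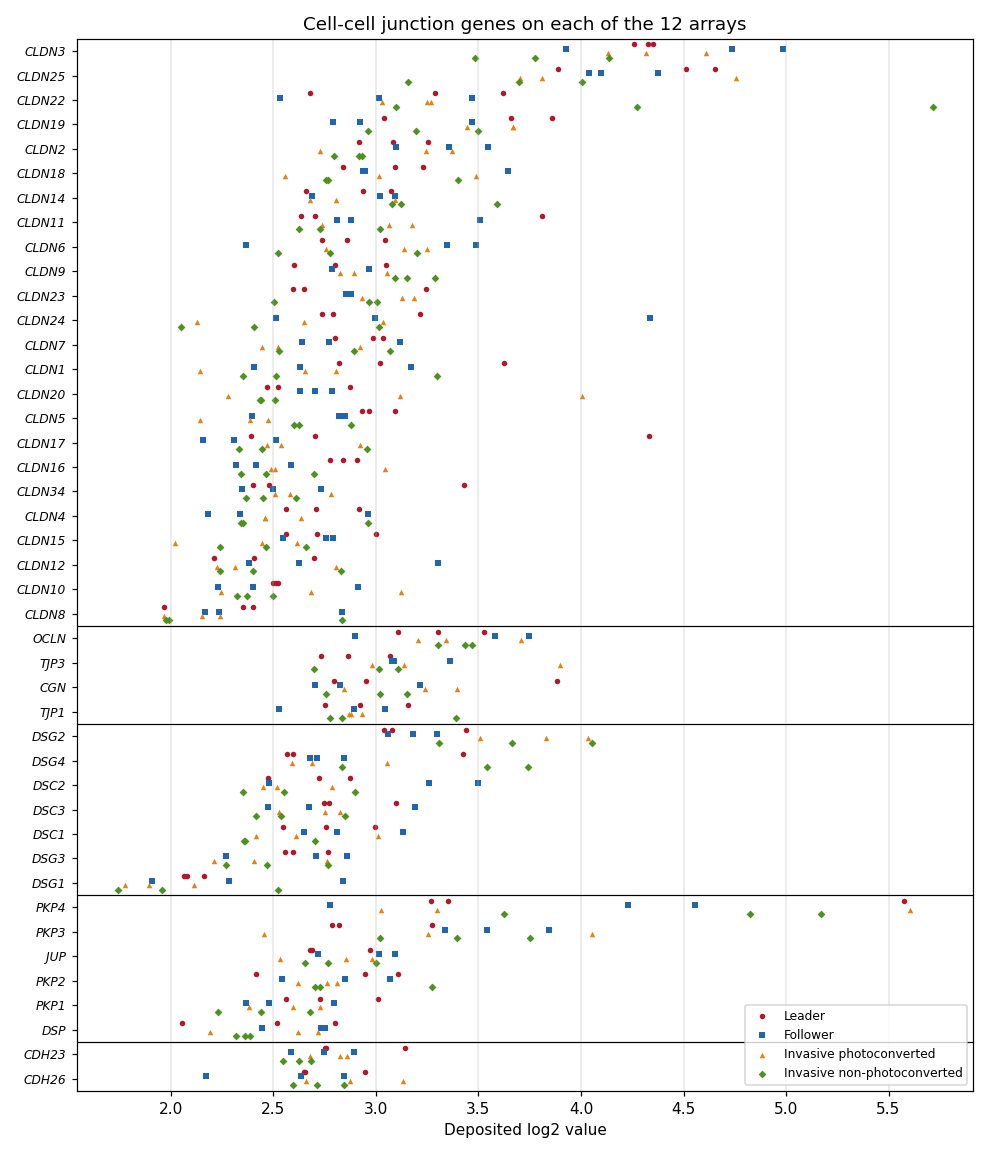
Deposited log2 value (x axis) of each of the 43 junction genes (rows, grouped by role as claudins, other tight junction, desmosomal cadherins, desmosomal plaque and cadherins) on each array. A point is 1 array, and groups are set apart vertically within a row only for legibility. Most points lie between 2 and 4, and the 4 values above 5 belong to PKP4 and CLDN22.

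The first question was whether leader cells differed from follower cells. No junction gene passed the adjusted test of limma (0 of 43, where 0% of all symbols passed), and none had an unadjusted p under 0.05, against 4.12% of all symbols. The mean was higher in leader cells for 22 members and lower for 21, and higher for 50.4% of all symbols. The median log2 difference was 0.0025 over the members and 0.0022 over all symbols, and single differences ran between -0.62 for PKP3 and 0.82 for CLDN17. The 95% interval lay wholly within 1 log2 unit of 0 for 36 of the 43 genes and within 0.5 for 3 of them. The median half-width of that interval was 0.527 log2 units. A member with an interval of that width needed a larger difference to reach an unadjusted p under 0.05. To pass the adjusted test it needed a larger one still.

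By role, leader means were higher for 11 claudins and lower for 13, with a median difference of -0.011. Of the 4 other tight junction genes 2 were higher and 2 lower. Desmosomal cadherins split into 4 higher and 3 lower, with a median of 0.0065, and the plaque genes into 3 and 3, with a median of -0.081. Both cadherins had higher means in leader cells.

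For 4 of the 43 members no leader array lay within the range of the follower arrays, nor the reverse, as was so for 8.74% of all symbols. CLDN16 and CLDN5 were higher on every leader array, and PKP3 and TJP3 lower. CLDN16, a claudin of the thick ascending limb of the kidney that passes divalent cations, had values of 2.91, 2.77 and 2.84 in leader cells, 2.59, 2.32 and 2.42 in follower cells, 2.51, 3.05 and 2.49 in photoconverted invasive cells and 2.46, 2.34 and 2.70 in non-photoconverted invasive cells. The 3 leader values lie close together, yet photoconverted 2 is higher than any of them. The leader minus follower difference was 0.40 (standard error 0.19, 95% interval -0.02 to 0.82), with an unadjusted p of 0.0579 (limma, adjusted p = 1.00). Its mean of 2.62 stood at the percentile 22.3 of all symbols. The permutation procedure of the study's methods was rerun here on these symbols. CLDN16 was also the 1 member of 42 that this rerun called higher in leader cells (unadjusted permutation p = 0.002). The rerun called 3.15% of all symbols higher in leader cells. It called 0 of 42 members higher in follower cells, against 2.44% of all symbols. CLDN9 was left out there because its invasive groups differed in the methods' t-test.

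CLDN5, the main claudin of endothelial tight junctions, had values of 3.09, 2.97 and 2.93 in leader cells, 2.85, 2.82 and 2.40 in follower cells, 2.14, 2.38 and 2.47 in photoconverted invasive cells and 2.88, 2.60 and 2.62 in non-photoconverted invasive cells. All leader values exceeded all follower values, narrowly at the closest pair. The difference was 0.31 (standard error 0.18, 95% interval -0.09 to 0.70), with an unadjusted p of 0.113 (limma, adjusted p = 1.00). Of the other endothelial markers measured, PECAM1 averaged 3.19 in leader and 3.19 in follower cells, VWF 3.11 in leader and 2.80 in follower cells, and EMCN 2.82 in leader and 2.54 in follower cells, all below the KRTAP 95th percentile. Their part in the CLDN5 values was not tested.

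PKP3, a plakophilin that stabilises desmosomal plaques, had values of 2.82, 3.27 and 2.79 in leader cells, 3.33, 3.85 and 3.54 in follower cells, 2.45, 3.25 and 4.05 in photoconverted invasive cells and 3.02, 3.40 and 3.75 in non-photoconverted invasive cells. Follower cells averaged highest of the groups, but photoconverted 3 exceeded every follower array. Leader cells averaged 2.96 ± 0.27 and follower cells 3.57 ± 0.26 (SD, n = 3 each). The difference was -0.62 (standard error 0.35, 95% interval -1.39 to 0.16), with an unadjusted p of 0.109 (limma, adjusted p = 1.00).

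TJP3, which encodes the scaffold ZO-3, had values of 2.86, 2.73 and 3.07 in leader cells, 3.36, 3.08 and 3.09 in follower cells, 3.90, 2.98 and 3.14 in photoconverted invasive cells and 2.70, 3.02 and 3.11 in non-photoconverted invasive cells. The nearest leader and follower values, 3.07 and 3.08, are almost equal. Its difference was -0.29 (standard error 0.24, 95% interval -0.82 to 0.24), with an unadjusted p of 0.253 (limma, adjusted p = 1.00).

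**Figure D3:**
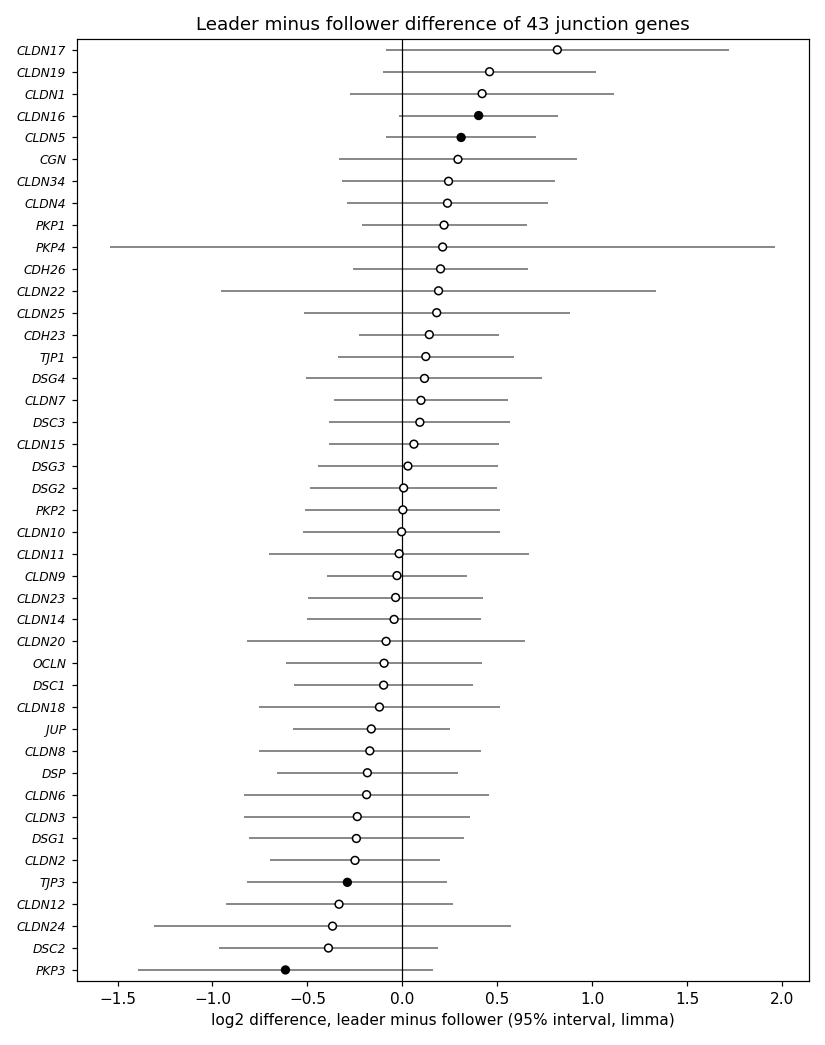
Leader minus follower log2 difference (x axis) of each of the 43 junction genes, in order of size, with its 95% interval from limma (horizontal lines). Filled points mark the 4 genes whose leader and follower arrays do not overlap. Every interval includes 0, and the widest belongs to PKP4.

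The members with the highest signal did not separate leader from follower cells. CLDN3, a common claudin of simple epithelia, had values of 4.33, 4.26 and 4.35 in leader cells, 4.98, 3.93 and 4.74 in follower cells, 4.32, 4.13 and 4.61 in photoconverted invasive cells and 3.49, 4.14 and 3.77 in non-photoconverted invasive cells. The leader arrays sat close together, inside the range of the follower arrays, and the non-photoconverted arrays were the lowest on average. The leader minus follower difference was -0.24 (standard error 0.27, 95% interval -0.83 to 0.36). CLDN25, a little studied claudin, had values of 4.66, 4.51 and 3.89 in leader cells, 4.38, 4.10 and 4.04 in follower cells, 3.81, 4.75 and 3.70 in photoconverted invasive cells and 3.70, 4.0 and 3.15 in non-photoconverted invasive cells. Its difference was 0.18 (standard error 0.32, 95% interval -0.52 to 0.88). The leader arrays overlapped the follower arrays.

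PKP4, a p120-related armadillo protein found at adherens junctions as well as desmosomes, was the least reproducible bright member. Its values were 5.58, 3.27 and 3.35 in leader cells, 4.23, 4.56 and 2.78 in follower cells, 5.60, 3.30 and 3.03 in photoconverted invasive cells and 5.17, 4.83 and 3.62 in non-photoconverted invasive cells. Each group held at least 1 array above 4 and at least 1 below it. Its standard deviation within groups was 1.15, at the percentile 98.5 of all symbols, and its difference of 0.21 (standard error 0.80, 95% interval -1.54 to 1.96) changed sign when leader 1 (-0.54) or follower 3 (-0.33) was left out.

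The other tight junction genes named by rule were compared between leader and follower cells in the same way. OCLN, the strand protein occludin, had values of 3.11, 3.53 and 3.30 in leader cells, 3.75, 2.90 and 3.58 in follower cells, 3.34, 3.71 and 3.20 in photoconverted invasive cells and 3.30, 3.43 and 3.47 in non-photoconverted invasive cells. TJP1, the scaffold ZO-1, had values of 2.75, 2.92 and 3.15 in leader cells, 2.53, 3.05 and 2.89 in follower cells, 2.88, 2.87 and 2.93 in photoconverted invasive cells and 2.77, 3.39 and 2.84 in non-photoconverted invasive cells. For both genes every pair of groups overlapped. CGN, cingulin, had values of 2.79, 2.95 and 3.88 in leader cells, 3.22, 2.83 and 2.70 in follower cells, 2.85, 3.40 and 3.24 in photoconverted invasive cells and 3.15, 3.02 and 2.76 in non-photoconverted invasive cells, and leader 3 stands above all other arrays. The difference for CGN was 0.29 (standard error 0.28, 95% interval -0.33 to 0.92), and -0.044 without leader 3.

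CLDN1, a barrier claudin of the skin and other epithelia, had values of 3.63, 2.82 and 3.02 in leader cells, 3.17, 2.41 and 2.63 in follower cells, 2.14, 2.65 and 2.80 in photoconverted invasive cells and 2.51, 2.35 and 3.30 in non-photoconverted invasive cells. Leader cells averaged 3.16 ± 0.42 and follower cells 2.74 ± 0.39 (SD, n = 3 each), a difference of 0.42 (standard error 0.32, 95% interval -0.28 to 1.12), and the arrays overlapped. CLDN7, a claudin of many epithelia, had values of 2.80, 2.99 and 3.03 in leader cells, 2.64, 3.12 and 2.77 in follower cells, 2.52, 2.92 and 2.44 in photoconverted invasive cells and 3.07, 2.89 and 2.53 in non-photoconverted invasive cells. Every pair of its groups overlapped.

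The other desmosomal plaque genes were JUP, DSP, PKP2 and PKP1, each with a mean below that of the median symbol. JUP, plakoglobin, which is shared between desmosomes and adherens junctions, had values of 2.69, 2.97 and 2.68 in leader cells, 2.72, 3.09 and 3.01 in follower cells, 2.98, 2.85 and 2.53 in photoconverted invasive cells and 2.66, 3.0 and 2.76 in non-photoconverted invasive cells. DSP, desmoplakin, which anchors keratin filaments, had values of 2.05, 2.52 and 2.80 in leader cells, 2.75, 2.44 and 2.73 in follower cells, 2.62, 2.19 and 2.72 in photoconverted invasive cells and 2.36, 2.39 and 2.32 in non-photoconverted invasive cells, among the lowest of the members. PKP2, the plakophilin best known from heart muscle, had values of 2.42, 2.95 and 3.11 in leader cells, 3.07, 2.85 and 2.54 in follower cells, 2.62, 2.76 and 2.81 in photoconverted invasive cells and 2.70, 2.73 and 3.27 in non-photoconverted invasive cells. The leader and follower arrays overlapped for each of these 3 genes, and for JUP and PKP2 every pair of groups did. PKP1, a plakophilin of stratified epithelia, had values of 2.73, 3.01 and 2.56 in leader cells, 2.48, 2.37 and 2.79 in follower cells, 2.59, 2.73 and 2.38 in photoconverted invasive cells and 2.44, 2.23 and 2.68 in non-photoconverted invasive cells, and its leader and follower arrays overlapped too.

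The second question set leader cells and follower cells each against the photoconverted invasive cells, which had gone through the same light switch. These comparisons share the photoconverted arrays. No member passed the adjusted test in either, where 0% of all symbols passed. At an unadjusted p under 0.05 there were 2 members for leader cells (CLDN5 higher and DSG2 lower), against 3.9% of all symbols (1.78% of all symbols higher and 2.12% lower). For follower cells there was 1 (DSG2 lower), against 4.21% of all symbols, with 2.14% lower. For leader cells 27 means were higher and 16 lower, with a median difference of 0.055, where 50.3% of all symbols were higher. For follower cells 23 were higher and 20 lower, with a median of 0.072, where 49.1% of all symbols were higher. With only the symbols above the median level, these medians were -0.030 for leader cells and -0.031 for follower cells. The 95% interval lay within 1 log2 unit of 0 for 34 members in each comparison.

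DSG2, the desmoglein found in simple as well as stratified epithelia, was the one member lower in both at that unadjusted p. It had values of 3.04, 3.08 and 3.44 in leader cells, 3.18, 3.30 and 3.06 in follower cells, 3.83, 4.03 and 3.51 in photoconverted invasive cells and 4.05, 3.66 and 3.31 in non-photoconverted invasive cells. Every leader array and every follower array was below every photoconverted array, and leader and follower cells had nearly the same mean, 3.18 ± 0.22 and 3.18 ± 0.12, against 3.79 ± 0.27 in photoconverted and 3.68 ± 0.37 in non-photoconverted cells (SD, n = 3 each). The difference for leader minus photoconverted cells was -0.60 (standard error 0.22, 95% interval -1.09 to -0.11), with an unadjusted p of 0.0201 (limma, adjusted p = 1.00). For follower minus photoconverted cells it was -0.61 (standard error 0.22, 95% interval -1.10 to -0.12), with an unadjusted p of 0.0191 (limma, adjusted p = 0.998). With photoconverted 2 left out these were -0.48 and -0.49, with unadjusted p of 0.0804 and 0.0769 in limma. The unadjusted p for leader cells was also above 0.05 without leader 1 (0.0648 in limma) or leader 2 (0.0592 in limma), and that for follower cells without follower 3 (0.0558 in limma).

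CLDN5 was the member higher in leader than in photoconverted cells at that unadjusted p. Its mean of 2.68 over the 12 arrays stood at the percentile 28.3 of all symbols, below the KRTAP median of 2.83. Photoconverted cells had the lowest mean of the 4 groups, 2.33, against 2.69 in follower and 2.70 in non-photoconverted cells. Every photoconverted array lay below every non-photoconverted array. The leader values of 3.09, 2.97 and 2.93 all lay above the photoconverted values of 2.14, 2.38 and 2.47. The difference was 0.66 (standard error 0.18, 95% interval 0.27 to 1.06), with an unadjusted p of 0.00344 (limma, adjusted p = 1.00), and 0.57 to 0.73 with 1 array left out. The arrays of 3 members did not overlap between leader and photoconverted cells (CLDN1 and CLDN5 higher, DSG2 lower), against 9.54% of all symbols. Between follower and photoconverted cells there were 2 (CLDN23 and DSG2, both lower), against 9.14% of all symbols.

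The third question was what photoconversion itself did to these genes. Photoconverted and non-photoconverted invasive cells differed in 0 of 43 members by the adjusted test, where 0% of all symbols passed, and in 1 at an unadjusted p under 0.05 (CLDN22, lower), against 4.86% of all symbols, with 3.01% lower. The mean was higher in photoconverted cells for 24 members and lower for 19, with a median difference of 0.065, against 0.017 over all symbols, of which 52.7% were higher. CLDN22, a claudin with little known of its role, had values of 2.68, 3.29 and 3.62 in leader cells, 3.01, 2.53 and 3.47 in follower cells, 3.03, 3.25 and 3.27 in photoconverted invasive cells and 4.27, 5.72 and 3.10 in non-photoconverted invasive cells. The high mean of non-photoconverted cells, 4.36 ± 1.3 (SD, n = 3), rested on replicates 1 and 2, while replicate 3 lay inside the range of the photoconverted arrays. The highest value, 5.72, came from non-photoconverted 2, the array with the most symbols above 6 (332). The part of that array in the CLDN22 difference was not tested. The difference was -1.18 (standard error 0.52, 95% interval -2.33 to -0.03), with an unadjusted p of 0.0446 (limma, adjusted p = 0.998). Without non-photoconverted 2 it was -0.51, with an unadjusted p of 0.224 in limma, and the unadjusted p was under 0.05 in only 4 of the 12 fits with 1 array left out. CLDN24, a closely related gene beside it on chromosome 4, was not high on these arrays, with 2.40, 2.05 and 3.01 in non-photoconverted cells. The arrays did not overlap for CLDN5 and CLDN9, both lower in photoconverted cells, against 9.75% of all symbols. The methods' t-test called 1 member, CLDN9, at its unadjusted threshold, against 4.61% of all symbols, and 0 after adjustment.

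**Figure D4:**
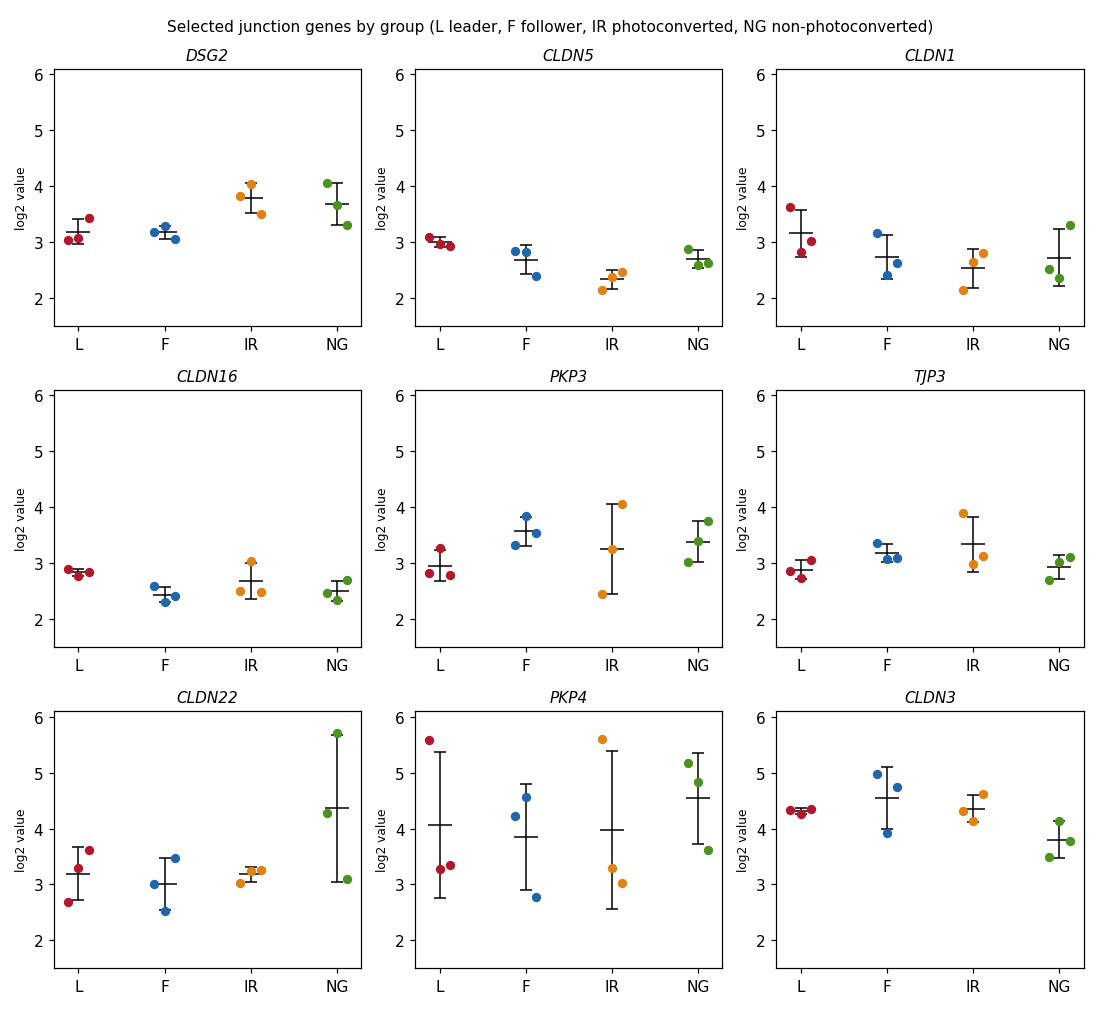
Deposited log2 value (y axis, the same scale in each panel) of 9 junction genes on each array, by group (L leader, F follower, IR photoconverted invasive, NG non-photoconverted invasive). Points are arrays, and bars are the mean and SD of 3. DSG2 lies lower in L and F than in IR, CLDN5 lies highest in L, CLDN22 is high on 2 NG arrays, and PKP4 spreads over more than 2 log2 units within L and IR.

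The signed difference between the leader minus follower and the photoconverted minus non-photoconverted difference was tested too. The methods' permutation procedure instead sets leader minus follower against the absolute difference of the control groups. No member passed the adjusted test, where 0% of all symbols passed, and 1 member, CLDN5, had an unadjusted p under 0.05, above 0, against 3.65% of all symbols, with 2.01% above 0. CLDN5 was higher in leader than in follower cells and lower in photoconverted than in non-photoconverted cells, and the 2 differences were 0.68 (standard error 0.26, 95% interval 0.12 to 1.23) apart, with an unadjusted p of 0.0221 (limma, adjusted p = 0.996). Without follower 3, photoconverted 1 or non-photoconverted 1 the unadjusted p was 0.0528, 0.0556 or 0.0537 in limma. In size its leader and follower difference of 0.31 was smaller than its control difference of -0.37, and the permutation procedure, which reads the control difference without its sign, gave a permutation p of 0.668 for CLDN5 higher in leader cells. Over the members, 20 such values were above 0 and 23 below, with a median of -0.024, and 49.9% of all symbols were above 0.

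In a test of any difference among the 4 groups, 0 of 43 members passed the adjusted threshold (0% of all symbols). In limma's F test 2 members had an unadjusted p under 0.05, against 4.96% of all symbols. They were CLDN5, with a p of 0.0256 (limma, adjusted p = 0.968), and DSG2, with a p of 0.0335 (limma, adjusted p = 0.968). When leader and follower arrays together were set against both invasive groups, a comparison added after the data were seen, 0 members passed the adjusted test, where 0.00672% of all symbols did. At an unadjusted p under 0.05 there were 3, CLDN5 and CLDN15 higher and DSG2 lower, against 5.66% of all symbols (2.28% of all symbols higher and 3.38% lower). For DSG2 this difference was -0.55 (standard error 0.16, 95% interval -0.90 to -0.20), with an unadjusted p of 0.00491 (limma, adjusted p = 0.745). No member separated the 6 leader and follower arrays from the 6 invasive arrays without overlap, as 0.302% of all symbols did. For DSG2 the exception was leader 3, at 3.44, which exceeded non-photoconverted 3, at 3.31. In this comparison 27 means were higher and 16 lower, with a median of 0.098, where 51.5% of all symbols were higher. With only the symbols above the median level, this median was -0.064.

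Other genes of these junctions, from lists that the rule does not include, were compared between leader and follower cells, and no gene of them passed the adjusted threshold. Of 18 further tight junction genes, such as the tricellulin family, JAM2, JAM3 and the angiomotins, 2 were higher (MARVELD3 and TJAP1) and 0 lower at an unadjusted p under 0.05. Of 16 polarity genes of the Par, Crumbs and Scribble complexes, 0 were higher and 1 lower (LIN7B). Of 39 symbols of the protocadherin, FAT and Dachsous families, 2 of them antisense RNAs and 3 pseudogenes, 0 were higher and 1 lower (FAT1). None of 8 nectins and adherens partners, 3 further desmosome genes and 3 pannexins reached that p in limma. The shares of all symbols were 2.14% higher and 1.98% lower.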

How the data were processed

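RNA of a small pool of sorted H1299-Dendra2 cells per array was amplified by a protocol for 1 to 20 cells (per the labels), and 12 Affymetrix arrays of the Human Gene 2.0 ST type were hybridised, 3 for each of 4 groups. The authors deposited log2 values per probeset. Before that they adjusted the intensities for GC content, applied the background correction of RMA, normalized the arrays to common quantiles and took probe means per probeset. RMA and Partek 6.6 stand in the submitters' processing notes. A genome build was not given in the sources used here. Quantile normalization gives the probe intensities of all arrays 1 distribution, so a shift of all genes together would be lost. The symbol values used here still differed between arrays, with 76 symbols above 6 on follower 3 and 332 on non-photoconverted 2.

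Of 53617 probesets, 16098 carried 1 gene symbol in the platform annotation and 0 carried several, and 5473 were 0 on every array. The probeset with the highest mean stood for each of 14884 symbols. One model over the 4 groups was fitted by lmFit and eBayes of limma 3.58.1 (R 4.3.3), with Benjamini-Hochberg adjustment over all symbols and a threshold of 0.05. The methods' permutation procedure (9 pair differences per comparison, which share arrays and are not independent, 500 permutations, unadjusted p under 0.05, 686 symbols with changed controls left out) and the methods' t-test were run as alternatives in Python 3.11.15 with NumPy 2.4.6 and SciPy 1.17.1. The limma fit and the permutation procedure were tested on simulated data, and the t-test was not. The remaining alternatives comprised median centring, cyclic loess, a filter on level, the mean of all probesets, all probesets, array weights, a trended and robust fit, only the groups compared, a replicate block and leaving out each array.

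The members and lists were chosen with earlier results of these data known. Genes named are a fixed set of core junction genes, members with an unadjusted p under 0.05 in a planned comparison, members whose leader and follower arrays do not overlap and the 3 with the highest mean. Others named in a count of 5 or fewer, or for a value of their own, were chosen after their values were seen. Olfactory receptors were planned as the mark of silent genes, but only 1 was measured, so KRTAP genes were used. Promoter sequences are from RefSeq (GRCh38.p14).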

Additional observations from a re-analysis of the deposited data

How the results depend on the processing

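No member passed the adjusted test of limma in any comparison under the alternatives run or with any array left out. Since the lowest adjusted p among 15 gene differences was 0.436, this says nothing about their stability. With 1 of 12 arrays left out, the unadjusted p was no longer under 0.05 in 8 fits for CLDN22, 3 for DSG2 in leader minus photoconverted, 2 for DSG2 in follower minus photoconverted and 3 for CLDN5 in the difference of differences, and under the other settings in 6 of 9 for CLDN22. Of 308 values of these differences over the settings, 305 kept their direction. The other 3 changed sign in the leader and follower comparison, PKP4 (-0.54 without leader 1 and -0.33 without follower 3, over a range of -0.54 to 0.61 with 1 array left out) and CGN (-0.044 without leader 3, range -0.044 to 0.50). Many of the 308 could not change. With 1 probeset per member, the settings on probesets repeat the main difference. So do the filter on level, the trended and robust fit, only the groups compared and the replicate block. Leaving out an array of a group that a comparison does not use also leaves its difference unchanged. The count of 305 is therefore no measure of stability. With only the symbols above the median level, the median difference over the members was -0.030 for leader minus photoconverted, -0.031 for follower minus photoconverted, -0.11 for the difference of differences and -0.064 for leader and follower together against both invasive groups. Without that filter these medians were 0.055, 0.072, -0.024 and 0.098, so all but the difference of differences changed sign. The filter drops the members of low signal. With 1 array left out the follower minus photoconverted median ran between -0.014 and 0.076. The methods' permutation procedure called 1 member between leader and follower cells, and the methods' t-test 1 between the invasive groups at its unadjusted threshold. Counts at an unadjusted p under 0.05 were 0 to 3 per direction in every comparison over all settings. The replicate numbers showed no clear pairing of the arrays once group means were taken out. Of 18 same-number pairs 3 correlated above 0.1 (-0.071 to 0.217), and 5 of 12 arrays were closest to their own number. The mean correlation was 0.036 for the same number and -0.018 for different numbers. Weak correlation between noisy arrays cannot show that arrays of the same number shared no batch. With the replicate number as a block (replicate block), 0 members passed the adjusted test, and the counts at an unadjusted p under 0.05 were 2 lower in follower than in photoconverted cells and 0 lower in photoconverted than in non-photoconverted cells, where the fit without it had 1 in each. The low signal and 3 arrays per group limit all values, with a median half-width of the 95% interval of 0.527 log2 units over the members.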

Other observations

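Several dim claudins were high on a single array. CLDN17 had a log2 value of 4.33 on leader 3, while its other 11 values lay between 2.16 and 2.96, and leader cells read 2.70, 2.39 and 4.33 and follower cells 2.16, 2.31 and 2.51. CLDN24 had 2.73, 2.79 and 3.22 on the leader arrays, against 3.0, 2.51 and 4.34 on the follower arrays, with the high value on follower 3. CLDN20 had 4.0 on photoconverted 3, against 2.28 and 3.12 on the other photoconverted arrays and 2.44, 2.43 and 2.51 on the non-photoconverted arrays. In the desmoglein DSG4 the photoconverted arrays read 2.69, 2.59 and 3.05, against 3.54, 3.74 and 2.84 on the non-photoconverted arrays, where replicates 1 and 2 were high. These genes were chosen after their values were seen.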
